A study of Homo sapiens with 9 samples.

Results

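The 7 genes described here encode a secreted peptide, cell surface receptors and channels, a transcription cofactor and a steroid enzyme: EDN1, F2R, TSPAN8, ROR1, VGLL1, AQP5 and HSD17B2. They were picked among the largest falls with carnosic acid in the human colon adenocarcinoma line HT-29, a long-established culture of epithelial tumour cells, and each had 1 row on the array among 14884 named genes, of which 11163 were bright enough to test. RNA was measured on Affymetrix whole-transcript arrays in 3 groups of 3: cells given the vehicle (called untreated), cells given rosemary extract, a polyphenol-rich plant extract, and cells given carnosic acid, a phenolic diterpene of rosemary. All cells were grown in the same serum-containing medium and harvested after 24 h, and the 3 arrays per group are described by the submitters as biological replicates. No dose of either treatment is known here, so the effects of the extract and of carnosic acid cannot be matched by dose.

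EDN1 encodes the precursor of endothelin 1, a peptide that is cut by furin-type proteases and then by endothelin-converting enzyme before it acts on G protein-coupled receptors. F2R encodes PAR1, a receptor that thrombin switches on by cutting its outer end, and ROR1 a receptor tyrosine kinase-like protein that binds Wnt5a. TSPAN8 is a tetraspanin, a membrane protein that groups receptors and integrins at the cell surface. AQP5 is a water channel of secretory epithelia, VGLL1 binds the TEAD transcription factors in place of YAP, and HSD17B2 oxidises oestradiol and testosterone to weaker hormones.

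RefSeq promoter windows (GRCh38.p14) were found for 5 of the 7 genes, EDN1 with 3 start sites, TSPAN8 with 2, and ROR1, VGLL1 and AQP5 with 1 each. The 250 bases before the start are shown for 4 of them, because these genes were lowered together by both treatments while their upstream sequences differ widely in composition. Each is written 5′ to 3′ on the gene's own strand, with letters in capitals where a searched motif was found. EDN1 lies on the plus strand (chr6:12290111-12290360, the most downstream of its 3 windows), VGLL1 on the plus strand (chrX:136531965-136532214), TSPAN8 on the minus strand (chr12:71158000-71158249, the more upstream of its 2 windows) and AQP5 on the plus strand (chr12:49961622-49961871).
EDN1: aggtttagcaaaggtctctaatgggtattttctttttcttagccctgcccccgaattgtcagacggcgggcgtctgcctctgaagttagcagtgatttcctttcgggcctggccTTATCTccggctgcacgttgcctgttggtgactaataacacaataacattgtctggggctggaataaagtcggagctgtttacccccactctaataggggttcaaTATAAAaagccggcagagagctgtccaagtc
VGLL1: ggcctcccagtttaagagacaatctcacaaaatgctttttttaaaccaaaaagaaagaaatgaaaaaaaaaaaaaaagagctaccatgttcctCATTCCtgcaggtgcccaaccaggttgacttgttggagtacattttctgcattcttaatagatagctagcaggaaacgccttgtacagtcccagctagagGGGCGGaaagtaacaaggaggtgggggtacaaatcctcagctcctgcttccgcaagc
TSPAN8: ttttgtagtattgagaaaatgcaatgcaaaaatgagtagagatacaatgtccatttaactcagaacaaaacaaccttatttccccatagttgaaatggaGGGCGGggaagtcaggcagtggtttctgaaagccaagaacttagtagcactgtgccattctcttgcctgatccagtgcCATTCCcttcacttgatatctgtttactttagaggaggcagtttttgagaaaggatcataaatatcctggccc
AQP5: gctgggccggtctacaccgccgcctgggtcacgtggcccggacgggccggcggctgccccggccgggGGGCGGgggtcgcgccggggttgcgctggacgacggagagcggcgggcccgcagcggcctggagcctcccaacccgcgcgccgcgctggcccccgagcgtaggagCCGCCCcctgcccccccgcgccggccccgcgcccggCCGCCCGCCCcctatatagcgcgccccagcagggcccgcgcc

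The 4 windows ranged from 40.8% G and C in TSPAN8 and 43.6% in VGLL1, through 49.2% in EDN1, to 84.4% in AQP5, against a median of 58.0% over 35116 RefSeq windows of the same length. AQP5 held 41 CG dinucleotides and TSPAN8 held 1. The ROR1 window, which is not printed, had 69.2% G and C and 24 CG dinucleotides. The genes therefore included CG-rich and CG-poor promoters.

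Motifs were searched on both strands, and positions give the first base of a match, counted back from the start. The EDN1 window held a TATA box (TATAAA, found in 10.7% of all windows) at -31 and a GATA motif (AGATAA, 9.17% of windows) read on the minus strand at -136. The TEAD motif GGAATG, present in 11.9% of all windows, was read on the minus strand at -157 in VGLL1 and at -73 in the printed TSPAN8 window, and at -129 in another of the EDN1 windows. It was absent from the ROR1 and AQP5 windows and from the remaining EDN1 windows. The TSPAN8 window that is not printed held no match to any searched motif. The shares are per window, and EDN1 and TSPAN8 had several windows searched. The GC box GGGCGG (42.6% of windows) occurred 4 times in AQP5, with 2 of these matches overlapping in the capitals nearest the start, and once each in VGLL1 (-57), TSPAN8 (-151) and the most upstream EDN1 window (-108). The CCAAT box (32.0% of windows) was found in the ROR1 window at -47 and in the most upstream EDN1 window at -79. The AP-1 motif TGANTCA (6.57%), the cyclic AMP response element TGACGTCA (1.65%) and the antioxidant response element TGACNNNGC (10.9%) had no match in the windows of these genes. A match is a stretch of letters and not a measured binding site. Only the exact letters were searched, so the lack of a match does not show that a promoter lacks such a site.

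EDN1 had the largest fall with carnosic acid of all 11163 genes tested. Its log2 level was 10.12, 9.98 and 10.18 in the untreated arrays, 8.10, 7.90 and 8.46 with carnosic acid, and 8.03, 7.71 and 7.53 with the extract. Every treated array lay below every untreated one, by at least 1.52 on the log2 scale with carnosic acid, and the ranges of the 2 treatments overlapped. Untreated and carnosic acid arrays lay apart in this direction in 13.1% of tested genes, and untreated and extract arrays in 21.7%. The mean was 3.83-fold lower with carnosic acid (log2 difference -1.94 ± 0.14, SE) and 5.05-fold lower with the extract (-2.33 ± 0.14, limma adjusted p = 2.62e-07). In bulk RNA, fewer cells that express a gene and less RNA per cell cannot be told apart.

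F2R, the thrombin receptor, held place 3 in the order of falls with carnosic acid. Its levels were 9.18, 9.15 and 9.44 untreated, 7.58, 7.76 and 8.16 with carnosic acid, and 7.02, 7.25 and 7.29 with the extract (log2). The groups followed one another without overlap, although the lowest carnosic acid array was only 0.29 above the highest extract array. The mean was 2.68-fold lower with carnosic acid (log2 difference -1.42 ± 0.14, SE) and 4.20-fold lower with the extract (-2.07 ± 0.14, limma adjusted p = 4.26e-07).

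ROR1, the Wnt5a receptor, measured 9.54, 9.57 and 9.73 in untreated cells, 8.19, 8.29 and 8.82 with carnosic acid, and 7.25, 7.40 and 7.50 with the extract (log2). Carnosic acid replicate 3 was the highest of its group, and all 3 groups still lay apart. Carnosic acid gave a 2.27-fold lower mean (log2 difference -1.18 ± 0.14, SE). The extract gave a 4.68-fold lower mean (-2.23 ± 0.14, limma adjusted p = 2.80e-07), the second largest of the 7 extract falls after EDN1.

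The tetraspanin TSPAN8 started from 8.07, 7.68 and 8.06 in untreated cells and lay at 6.78, 6.61 and 6.72 with carnosic acid and at 5.99, 5.80 and 5.60 with the extract (log2). Carnosic acid arrays were tightly grouped (SD 0.089, n = 3) and were separated from the arrays on either side. The means were 2.35-fold lower with carnosic acid (log2 difference -1.23 ± 0.13, SE) and 4.42-fold lower with the extract (-2.14 ± 0.13, limma adjusted p = 1.74e-07).

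The water channel gene AQP5 had the most even untreated levels of the 7 genes, at 9.05, 8.97 and 8.999 (log2, SD 0.042, n = 3). It measured 7.73, 7.91 and 7.92 with carnosic acid and 6.79, 6.74 and 7.22 with the extract, so that the 3 groups did not overlap. These were falls of 2.22-fold with carnosic acid (log2 difference -1.15 ± 0.11, SE) and 4.27-fold with the extract (-2.09 ± 0.11, limma adjusted p = 1.13e-07).

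VGLL1, the TEAD cofactor, had the widest untreated spread, at 7.93, 8.01 and 8.49 (log2, SD 0.30, n = 3). It lay at 6.68, 7.07 and 7.16 with carnosic acid and at 5.77, 6.09 and 6.14 with the extract, again without overlap. Its mean was 2.25-fold lower with carnosic acid (log2 difference -1.17 ± 0.17, SE) and 4.42-fold lower with the extract (-2.14 ± 0.17, limma adjusted p = 1.43e-06).

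HSD17B2, the oxidising steroid dehydrogenase, measured 8.53, 8.35 and 8.30 untreated and 7.32, 7.32 and 7.28 with carnosic acid (log2). With the extract it lay at 6.34, 6.50 and 6.74, below both other groups. Its differences were the smallest of the 7 genes in both comparisons with untreated cells, at 2.12-fold lower with carnosic acid (log2 difference -1.08 ± 0.10, SE) and 3.65-fold lower with the extract (-1.87 ± 0.10, limma adjusted p = 1.07e-07).

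**Figure D1:**
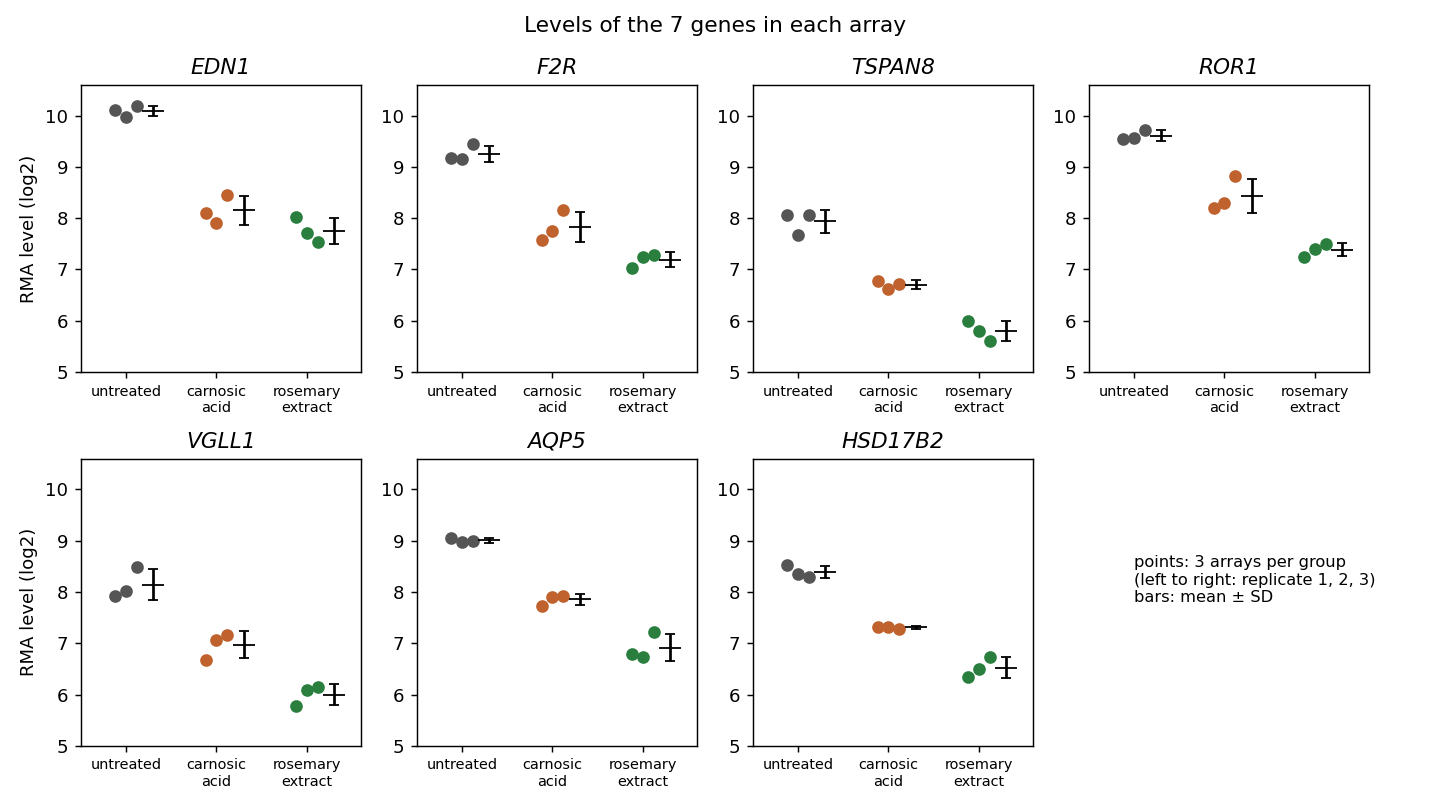
RMA expression level (log2, vertical axis) of each gene in untreated, carnosic acid and rosemary extract arrays; points are single arrays (3 per group) and bars show the mean ± SD. In each gene the untreated arrays lie highest, and the extract arrays lie below the carnosic acid arrays except in EDN1, where the 2 treatments overlap.

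The carnosic acid values above are a description, because the genes were picked by them. The 7 genes held places 1 and 3 to 8 in the order of falls with carnosic acid, and LGR5, a Wnt-responsive stem cell receptor that is not among them, held place 2 (-1.76). Just inside stood HSD17B2 (-1.08), and just outside the scaffold gene IQGAP2 (-1.07), PLAC8 (-1.07) and LOC100287834 (-1.06). All 7 are among the genes called at least 2-fold lower with carnosic acid, 0.143% of the genes tested, and nothing is read from that count.

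The rosemary extract arrays were not used to pick the genes, although the untreated arrays they are compared with were. With the extract all 7 genes were called lower, where 16.3% of all tested genes were called lower (limma, adjusted p under 0.05), and all 7 changed at least 2-fold, where 2.5% of tested genes fell that far. Their log2 differences ran from -2.33 to -1.87 with a median of -2.14, against a median of -0.018 over all tested genes. In the order of falls with the extract, EDN1 held place 10, ROR1 12, VGLL1 19, TSPAN8 21, AQP5 27, F2R 28 and HSD17B2 54. The extract differences spanned 0.47 on the log2 scale from the largest to the smallest. The carnosic acid differences spanned 0.86, from EDN1 (-1.94), the largest fall of all, to HSD17B2 (-1.08), with F2R next to EDN1 at -1.42. Because the carnosic acid values picked the genes, the 2 spans are not compared.

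**Figure D2:**
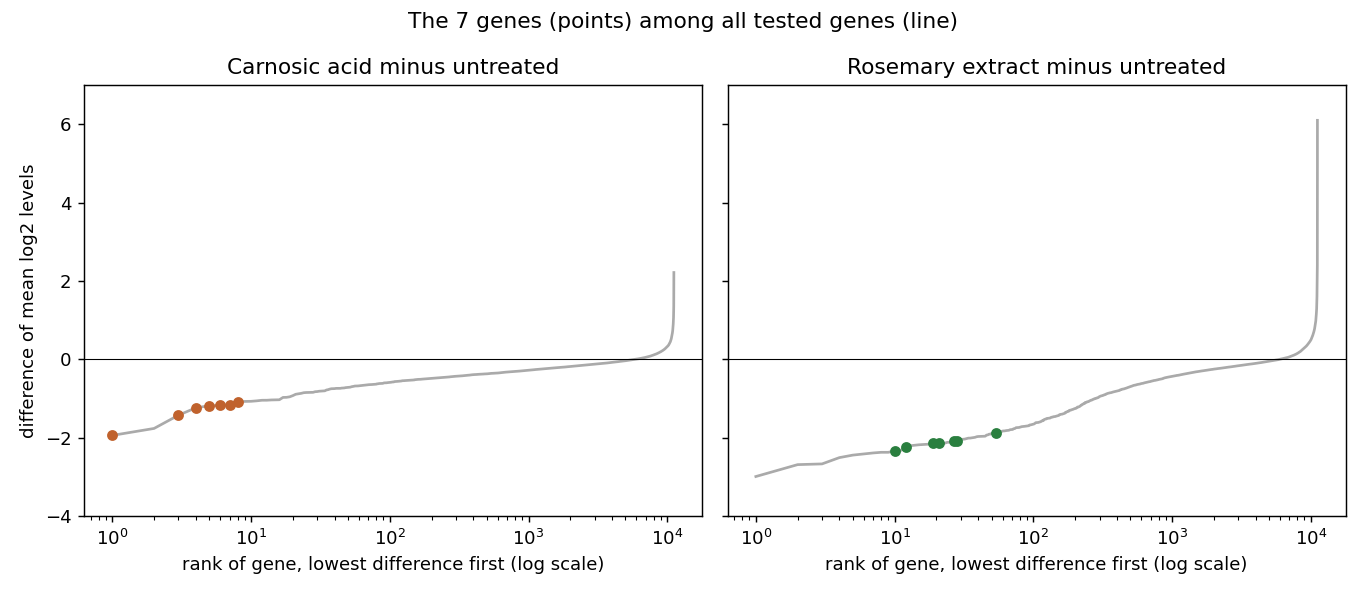
Difference of mean log2 levels from untreated cells (vertical axis) for all 11163 tested genes, ordered from the lowest (horizontal axis, rank on a log scale); the line is all genes and the points are the 7 genes. With carnosic acid, which picked the genes, they stand at places 1 and 3 to 8, and with rosemary extract they stand between places 10 and 54.

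Set directly against each other, the extract left lower levels than carnosic acid. Of the 7 genes 6 were called lower with the extract than with carnosic acid, where 9.07% of tested genes were called lower. In the same 6 the arrays did not overlap, as in 15.6% of tested genes. The carnosic acid arrays of this comparison were used to pick the genes. ROR1 differed most, by -1.05 ± 0.14 (log2, SE, limma adjusted p = 0.000318), followed by VGLL1 (-0.97 ± 0.17, adjusted p = 0.00180), AQP5 (-0.94 ± 0.11, adjusted p = 0.000157) and TSPAN8 (-0.91 ± 0.13, adjusted p = 0.000416). HSD17B2 (-0.78 ± 0.10, adjusted p = 0.000248) and F2R (-0.65 ± 0.14, adjusted p = 0.00672) were also lower with the extract.

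EDN1 did not pass in that comparison. Its difference was -0.40 ± 0.14 (log2, SE, limma adjusted p = 0.0889), with a 95% interval of -0.71 to -0.080 that is not adjusted for the number of genes. Leaving out 1 array moved it in both directions, from -0.53 without rosemary extract replicate 1 (adjusted p = 0.0350) to -0.24 without carnosic acid replicate 3 (adjusted p = 0.3125). It was also called without carnosic acid replicate 2 (-0.52, adjusted p = 0.0388), and it did not pass under the other 15 alternatives. The carnosic acid difference of EDN1 was 83.0% of its extract difference on the log2 scale, and the same share was 68.8% in F2R and between 53.1% (ROR1) and 58.0% (HSD17B2) in the other 5 genes. The carnosic acid differences picked the genes, and both differences use the same untreated arrays. Nothing is therefore read from the order of these shares.

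**Figure D3:**
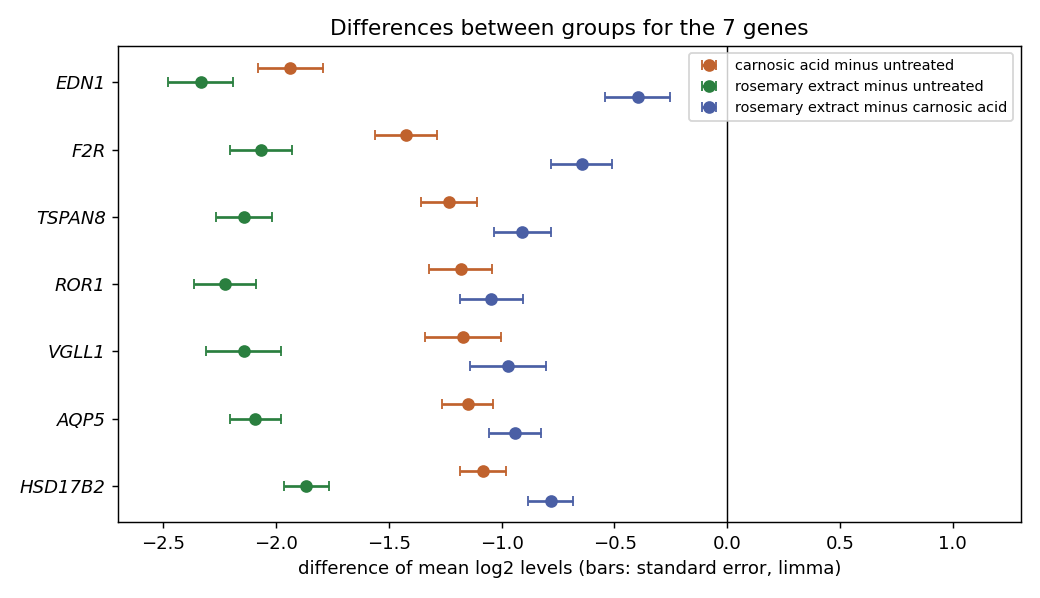
Difference of mean log2 levels (horizontal axis) for each gene, for carnosic acid minus untreated, rosemary extract minus untreated and rosemary extract minus carnosic acid; points are limma estimates and bars their standard errors, from 3 arrays per group. The extract estimates lie between -2.33 and -1.87, and the difference between the treatments is smallest in EDN1 (-0.40) and largest in ROR1 (-1.05).

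For 6 of the 7 genes, all but EDN1, the order untreated, carnosic acid, rosemary extract held array by array with no overlap. That order was seen in 4.27% of the tested genes. Its first step, carnosic acid below untreated, follows from how the genes were picked, so nothing is read from that share. Within groups the genes did not vary as 1 set. Untreated replicate 3 and carnosic acid replicate 3 were the highest of their groups in EDN1, F2R, ROR1 and VGLL1, whereas TSPAN8 was highest in replicate 1 of both groups. HSD17B2 was highest in untreated replicate 1, and its carnosic acid replicates 1 and 2 were level at 7.32. After the group means were taken out, the correlations of the 21 gene pairs over the 9 arrays ranged from -0.59 to 0.96, with a median of 0.11. Before that they lay between 0.91 and 0.993, as the shared group differences dominate them.

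The genes whose levels ran most like each member over the 9 arrays were taken as the 3 with the highest Pearson r, as a description. EDN1 was closest to the mitochondrial ribosomal protein gene MRPL35 (r = 0.995), RPS14 (0.985) and MIR3182 (0.985). For F2R they were PLAC8 (0.993), the catalase gene CAT (0.992) and the homeobox gene HOXB9 (0.991), and for ROR1 the homeobox gene ISL1 (0.998), ARHGAP18 (0.995) and TM7SF3 (0.995). TSPAN8 ran closest to HSD17B11 (0.993), PROM1, which encodes the surface glycoprotein CD133 (0.993), and HSBP1 (0.986). The nearest genes to VGLL1 were SNRNP40 (0.994), HNRNPR (0.988) and the epithelial transcription factor GRHL2 (0.987). AQP5 and HSD17B2 were among each other's nearest genes (r = 0.993), beside CAT (0.989) and FLOT2 (0.987) for AQP5 and KRT18 (0.993) and SH3BGRL (0.992) for HSD17B2. A high r reflects a proportional pattern over the arrays and not a like size, since RPS14 differed by only -0.33 with the extract where EDN1 differed by -2.33.

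The rest of each gene's family or pathway was described from written lists, leaving out the 7 genes themselves. Of 163 other genes written, 113 had a named row and 94 were tested. With the extract 16 of the 94 were called higher and 13 lower, and with carnosic acid 13 were called higher and 7 lower. Over all tested genes 21.8% were called higher and 16.3% lower with the extract, and 12.9% higher and 6.12% lower with carnosic acid, so the shares in the lists lay near the background. The background of lower calls with carnosic acid moved with the setting, from 683 genes to 367 without carnosic acid replicate 1, and from 6.12% to 4.24% under median centring and 7.81% under cyclic loess.

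**Figure D4:**
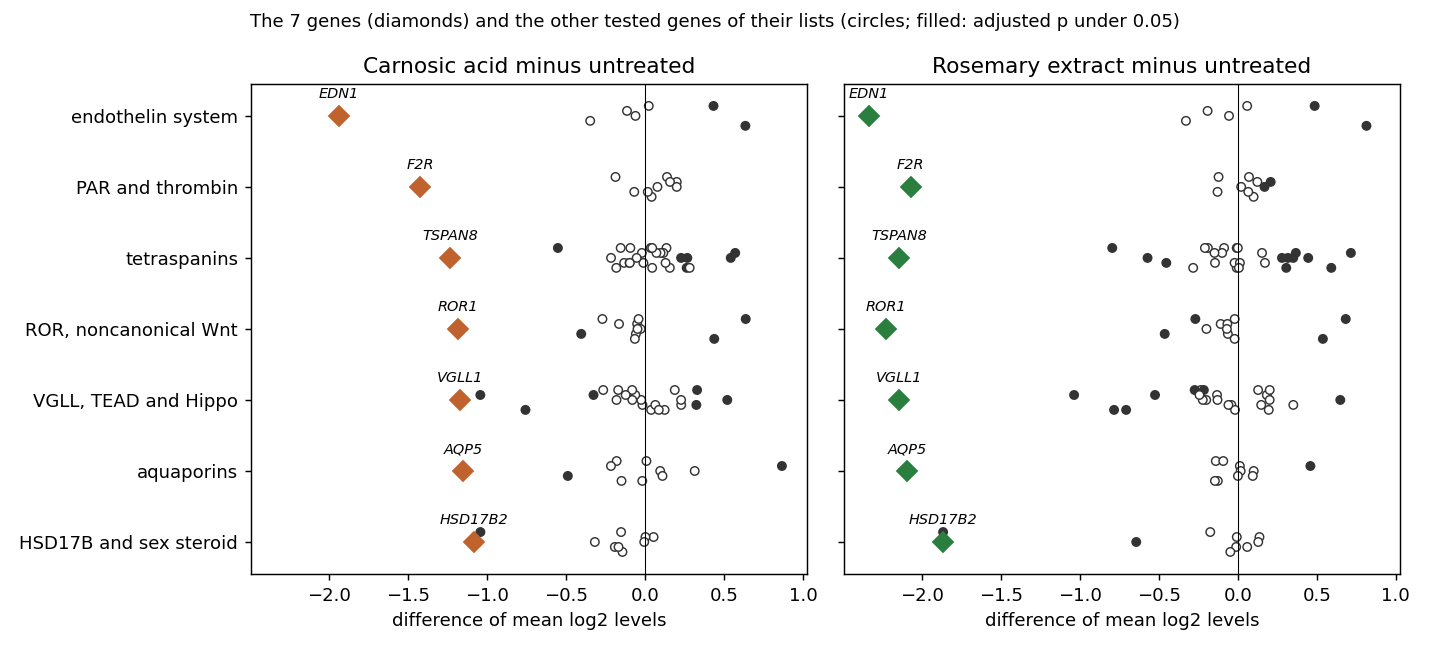
Difference of mean log2 levels from untreated cells (horizontal axis) for the 7 genes (diamonds) and the other tested genes of each list (circles, filled where the adjusted p is under 0.05), with carnosic acid at left and rosemary extract at right. Each of the 7 genes lies lowest in its list, with HSD17B11 beside HSD17B2 in both panels and CCN2 near VGLL1 at left. With carnosic acid this place follows from how the genes were picked. Most other genes lie near 0.

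In the endothelin system FURIN and ECE1, both proteases that ripen the peptide, rose with both treatments, in which EDN1 was lower. FURIN, which cuts the precursor, rose by 0.81 ± 0.06 with the extract and by 0.64 ± 0.06 with carnosic acid (log2, SE, limma adjusted p = 1.26e-06 and 5.48e-05). ECE1, the endothelin-converting enzyme, rose by 0.49 ± 0.05 and 0.43 ± 0.05 (adjusted p = 2.70e-05 and 0.000285). PCSK7, another furin-type protease, did not pass (0.060 with the extract and 0.024 with carnosic acid, adjusted p = 0.513 and 0.833), nor did ECEL1, a relative of ECE1 (-0.19 and -0.11, adjusted p = 0.155 and 0.465). These were 2 of the 6 other genes tested, with list medians of 0.0025 with the extract and -0.018 with carnosic acid. The sister ligands EDN2 (-0.055 with the extract, adjusted p = 0.646) and EDN3 (-0.33, adjusted p = 0.204) did not pass. Nor did they with carnosic acid (-0.060 and -0.35, limma adjusted p = 0.662 and 0.232). EDN3 was called lower there when carnosic acid replicate 2 was left out (-0.57, adjusted p = 0.0316). The receptor gene EDNRB lay under the dim limit in all groups, at mean log2 levels of 4.23 to 4.36.

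Among the protease-activated receptors and thrombin signalling genes little passed the test. The related receptors F2RL2 (0.10 with the extract, 0.042 with carnosic acid) and F2RL3 (-0.12 and -0.19) did not pass in either comparison (limma adjusted p = 0.260 or above). Of 9 other genes 2 were called higher with the extract, ARHGEF12 (0.17, adjusted p = 0.0144) and ARHGEF11 (0.21, adjusted p = 0.0336), exchange factors that act downstream of such receptors. The count fell to 1 under cyclic loess, without a mean-variance trend, with a replicate block, without any 1 untreated array or without extract replicate 1, and to 0 without extract replicate 2. With carnosic acid limma called 0 of the 9, and 2 had an unadjusted p under 0.05; 1 was called under median centring or without untreated replicate 2 or 3.

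Called tetraspanins went in both directions, as called genes did over the whole array. Of 26 others tested, 8 rose and 3 fell with the extract, with a median of -0.0029, and 5 rose and 1 fell with carnosic acid, with a median of 0.046. Over all tested genes 21.8% were called higher and 16.3% lower with the extract, and 12.9% and 6.12% with carnosic acid. TSPAN5, a partner of the protease ADAM10, rose by 0.72 ± 0.09 and 0.57 ± 0.09 (log2, SE, limma adjusted p = 7.46e-05 and 0.00130 with extract and carnosic acid). CD63, found on late endosomes and exosomes, rose by 0.45 and 0.27 (adjusted p = 0.000169 and 0.0124). TSPAN12 was lower by -0.79 ± 0.14 with the extract and by -0.55 ± 0.14 with carnosic acid (adjusted p = 0.00102 and 0.0209), and TSPAN6 fell with the extract (-0.57, adjusted p = 5.78e-05). The widely used surface tetraspanins CD9 (-0.0064) and CD151 (-0.086) did not pass with the extract. With carnosic acid the higher count was 3 when untreated replicate 2 or either of the first 2 carnosic acid arrays was left out, the lower count was 0 without either of those carnosic acid arrays, and the TSPAN12 call was lost without any 1 carnosic acid array. The call of CD63 with carnosic acid rested on replicate 2 of that group (adjusted p = 0.0532 without it), and the lower count with the extract was 5 without untreated replicate 3.

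In the noncanonical Wnt list the sister receptor of ROR1 was not called. ROR2 measured 5.04 ± 0.07 untreated and 5.02 ± 0.21 with the extract (log2, SD, n = 3) and did not pass (limma adjusted p = 0.909). It started near the dim limit of 4.50, where ROR1 started at 9.61, so a fall as large as that of ROR1 might not show in it. Of 11 others tested, DAAM1, a formin downstream of Dishevelled, and the receptor FZD7 rose with both treatments, DAAM1 by 0.68 ± 0.11 with the extract and 0.64 ± 0.11 with carnosic acid (SE, adjusted p = 0.000408 and 0.00200), and FZD7 by 0.54 and 0.44 (adjusted p = 0.00138 and 0.0117). PTK7, a planar polarity co-receptor, fell by 0.46 with the extract and by 0.40 with carnosic acid (adjusted p = 0.00189 and 0.0104). FZD8 differed by -0.27 with either treatment, passing with the extract (adjusted p = 0.0394) and not with carnosic acid (adjusted p = 0.0658), and the treatments did not differ detectably (0.00071 ± 0.09, SE, adjusted p = 0.999). It was called with carnosic acid without a mean-variance trend (adjusted p = 0.0495), and its call with the extract was lost under cyclic loess, median centring, the replicate block, the fit to 6 arrays, and without replicate 1 or 2 of the untreated or of the extract arrays (adjusted p up to 0.147). The list medians were -0.065 and -0.049.

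Genes of the VGLL, TEAD and Hippo list included further falls. CCN2, a secreted matrix protein and a target of YAP and TEAD, fell by 1.04 ± 0.08 with either treatment (log2, SE, limma adjusted p = 8.63e-07 with the extract and 7.37e-06 with carnosic acid), from 8.63 ± 0.06 to 7.59 ± 0.08 and 7.59 ± 0.11 (SD, n = 3). ANKRD1, another such target, fell by 0.71 and 0.76 (adjusted p = 0.00234 and 0.00402) to mean levels of 4.35 and 4.30, under the dim limit, so its fold is uncertain. AJUBA (-0.23 with the extract and -0.26 with carnosic acid), AMOTL2 (-0.040 and -0.015) and AXL (0.13 and 0.19) of the same list did not pass (limma adjusted p = 0.144 or above). The dimmer row of CCN2, at a mean log2 level of 2.91, differed by -0.022 and 0.055. YAP1 itself rose by 0.65 and 0.52 (adjusted p = 8.15e-05 and 0.00134), and its dimmer row differed by 0.20 and 0.18; with the rows averaged the carnosic acid call of YAP1 was lost (adjusted p = 0.0859).

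The TEAD genes differed among themselves. TEAD2 fell with the extract (-0.78 ± 0.11, log2, SE, limma adjusted p = 0.000161) and not with carnosic acid (0.12, adjusted p = 0.480), and the 2 treatments differed by -0.91 (adjusted p = 0.000175). TEAD4 fell by 0.52 with the extract and by 0.33 with carnosic acid (adjusted p = 0.000341 and 0.0169), the latter call being lost without untreated replicate 1 or carnosic acid replicate 1 (adjusted p = 0.0571 and 0.0774). TEAD1 rose with carnosic acid (0.33, adjusted p = 0.00251), as did TEAD3 (0.33, adjusted p = 0.0270), whose call was lost in the fit to 6 arrays and on leaving out replicate 2 or 3 of the untreated cells or replicate 1 or 3 of the carnosic acid cells (adjusted p up to 0.0892). The other VGLL genes, VGLL2 (-0.22), VGLL3 (-0.059) and VGLL4 (0.20), did not pass with the extract. In all, of 23 others 6 fell and 1 rose with the extract, where 16.3% of all tested genes were called lower and 21.8% higher. The lower count was 7 under cyclic loess, and 4 under median centring or without untreated replicate 3 or extract replicate 2 or 3. Without untreated replicate 3, 4 rose. With carnosic acid 3 fell and 3 rose, where 6.12% of all tested genes were called lower and 12.9% higher. The list medians were -0.13 and -0.023.

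Among the tested aquaporins AQP5 was the only one called lower with the extract. AQP3, a channel for water and glycerol, rose by 0.46 ± 0.09 with the extract and by 0.87 ± 0.09 with carnosic acid (log2, SE, limma adjusted p = 0.00230 and 0.000108), opposite to AQP5. The other 9 tested did not pass with the extract, and the medians of the 10 were 0.0075 with the extract and -0.0034 with carnosic acid. AQP12A was lower with carnosic acid (-0.49, adjusted p = 0.0183), a call lost without untreated replicate 2 or carnosic acid replicate 3, and its near-identical copy AQP12B was at -0.15.

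In the steroid enzyme list HSD17B11 ran beside HSD17B2. HSD17B11, a short-chain dehydrogenase found on lipid droplets, fell from 9.44 ± 0.09 to 7.58 ± 0.19 with the extract and 8.40 ± 0.16 with carnosic acid (log2, SD, n = 3), differences of -1.86 and -1.04 (limma adjusted p = 1.39e-07 and 6.38e-05). It was also lower with the extract than with carnosic acid (-0.82, adjusted p = 0.000228). HSD11B2, which inactivates cortisol, fell with the extract (-0.64 ± 0.12, SE, adjusted p = 0.00140) and did not pass with carnosic acid (-0.32, adjusted p = 0.0988). HSD17B4 (0.13 with the extract, adjusted p = 0.0991) and HSD17B10 (-0.047, adjusted p = 0.636) did not pass. These 2 falls with the extract and 1 with carnosic acid were out of 9 other genes tested, with list medians of -0.0099 and -0.15. The second count was 2 in the fit to 6 arrays or without extract replicate 2, as HSD11B2 was then called.

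The labelled cell type was checked against its markers. All 9 colon epithelial markers with a named row lay above the dim limit, which leaves out only the lowest 25% of genes. Their mean levels in untreated cells (log2) ran from 5.77 in CDX2 to 12.59 in KRT18, with EPCAM at 11.36. CDX1 and CDX2 lay below the endothelial marker CLDN5 (6.24), so lying above the limit separates the cell types only weakly. The mean level of the 9 markers was 8.81 to 8.87 in untreated, 8.79 to 8.85 in carnosic acid and 8.60 to 8.71 in extract arrays. These means join markers that moved in opposite directions. KRT20, a keratin of differentiated colon cells, rose from 10.74 to 11.51 with the extract and 11.62 with carnosic acid (limma adjusted p = 8.13e-07 and 2.58e-06). VIL1, the microvillus protein villin, fell from 8.55 to 7.26 and 8.20 (adjusted p = 1.52e-07 and 0.00680). KRT18 fell to 12.11 and 12.28 (adjusted p = 6.70e-06 and 0.000770) and EPCAM to 11.17 and 11.15 (adjusted p = 0.00377 and 0.00517), and KRT19 rose with carnosic acid, from 10.42 to 10.70 (adjusted p = 0.00862). The other 4, CDX1, CDX2, KRT8 and GPA33, did not pass in either comparison with untreated cells. EDN1 and F2R are also expressed by endothelial cells. Of the 6 endothelial markers with a row, PECAM1, KDR, EMCN and TIE1 had a mean over the 9 arrays under the dim limit of 4.50, VWF (4.87 untreated) and CLDN5 (6.24) lay above it, and the mean of the list was 4.59 to 4.62, 4.42 to 4.61 and 4.44 to 4.57 in the same order. Both fibroblast markers with a row, DCN and LUM, lay under the limit. LYZ, a leukocyte marker that secretory epithelia also express, was at 12.43 untreated, and CD14 at 4.98, and that list's mean was 8.66 to 8.76, 8.28 to 8.75 and 8.30 to 8.50. The part of the epithelial marker changes and the lower LYZ level (12.17 with the extract, adjusted p = 0.000818, limma) in the results was not tested.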

How the data were processed

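RNA of HT-29 cells was hybridised to 9 Affymetrix gene arrays, 3 per group. The deposited values are log2 expression values made by the authors with RMA from the oligo package, per the labels; the log2 scale was read from the values, and neither tool versions nor the authors' array annotation are known here. Large fold changes are compressed by RMA, and with no detection call a low level may be background. Precision is limited by the number of arrays.

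Gene names came from the platform annotation: 16098 of 53617 rows had 1 gene symbol, 0 had several and 37519 are unnamed here. All 16098 Entrez identifiers matched RefSeq. The brightest row of each gene was kept, and the lowest 25% of genes by mean (log2 level under 4.50) were dropped as dim. Group means were fitted to all 9 arrays with limma 3.58.1 in R 4.3.3 (lmFit, eBayes with trend, two-sided, Benjamini-Hochberg over 11163 genes, called under 0.05). The fit was also run on simulated data with seeded changes. Their noise was independent and normal with each gene's own spread, so effects shared by genes of an array were not covered. Array medians lay between 4.82 and 4.90, arrays of 1 group correlated at 0.991 or above, and 0 pairs were identical.

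The members and lists were chosen with earlier results of these data known. Genes named besides the members were relatives of a member, up to 4 genes of each list with the smallest p per treatment, the 3 genes most like each member, and the genes next to the members in the order of falls. Some list genes that did not pass were named as well, beside called genes of their list. Marker genes were named whatever their values. Alternatives covered scaling, the dim filter, rows per gene, the trend, the arrays fitted, a replicate block and leaving out each array.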

Additional observations from a re-analysis of the deposited data

How the results depend on the processing

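Under the 17 alternatives tried (cyclic loess, median centring, no dim filter, the lowest 50% of genes left out, the mean of a gene's rows, no trend, only the 6 arrays compared, a replicate block, and each of the 9 arrays left out in turn) all 7 genes stayed called lower with rosemary extract, with log2 differences between -2.47 and -1.77, and stayed lower with carnosic acid, between -2.09 and -0.998. Against carnosic acid 6 or 7 of them were called lower with the extract. Leaving out 1 array gave 3490 to 4238 genes called with the extract (4256 with all arrays), 1384 to 2123 with carnosic acid (2123) and 1288 to 1964 between the treatments (1933); the lowest of these came without rosemary extract replicate 2, carnosic acid replicate 1 and rosemary extract replicate 2. HSD17B1 turned from -0.0099 to 0.46 with the extract when its rows were averaged, as its dimmer row differed by 0.92. Whether the replicate numbers pair the arrays cannot be settled with 3 arrays per group. Deviations of same-numbered arrays correlated between -0.22 and 0.24. The arrays closest to their own number were 0 of 6 for the extract against untreated, 4 for carnosic acid against untreated and 2 between the treatments. With the replicate block 4226, 2194 and 1947 genes were called with the extract, with carnosic acid and between the treatments, and 7 and 6 of the 7 genes were lower with the extract than in untreated and in carnosic acid cells. Depth does not apply to arrays, and signal near the dim limit bounds what can be said of the dimmest relatives.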
